A study of Homo sapiens with 18 samples.

Results

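The S100 genes analysed here are 10 members of the family of small calcium-binding proteins: S100A4, S100A6, S100A8, S100A9, S100A10, S100A11, S100A12, S100A13, S100P and S100Z. They were taken by symbol from a deposited expression table of 40184 genes, in which every one of the 10 was present, and were not selected by a measured value in the rule that defines them. Of the 10, 9 reached 1 CPM (read counts scaled to a common library size) in at least 3 libraries and entered the fit with 16262 genes; S100A12 did not. The RNA came from 3 human cell lines of acute myeloid leukaemia, grown in 18 cultures with 3 replicates in each of 6 groups, and each line was given either the vehicle DMSO or 500 nM RMC-4550 for 24 h. RMC-4550 is an allosteric inhibitor of SHP2, the PTPN11 phosphatase, which couples activated growth factor receptors to RAS signalling. Molm-14 and MV4-11 carry FLT3-ITD, an internal tandem duplication in a receptor tyrosine kinase gene, and SKNO-1 carries the mutation KIT N822K. All 3 lines were grown in RPMI with fetal bovine serum, and SKNO-1 alone also received hGM-CSF at 10 ng/mL, in both its groups, so that line, genotype and growth factor cannot be told apart. Each genotype is represented by 1 or 2 lines, and replicates are cultures of a line that the labels call biological. The p-values measure the spread between these cultures.

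S100 proteins bind calcium through paired EF-hand motifs and mostly act as dimers. S100A8 and S100A9 form calprotectin, an abundant cytosolic complex of neutrophils and monocytes that is released as an alarm signal and can act through TLR4 and RAGE. S100A12 is a further phagocyte alarmin, whereas S100A4, S100A6, S100A10 and S100A11 are made by many cell types and bind cytoskeletal proteins and annexins.

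Of the 10 members, 8 lay within 1648.4 kb of chromosome 1 (GRCh38, GENCODE 29), from S100A10 at chr1:151982915-151994390 to S100A13 at chr1:153618787-153631360. S100A9 (chr1:153357854-153361027, plus strand) and S100A8 (chr1:153390032-153391188, minus strand) were 29 kb apart, with S100A12 (chr1:153373706-153375649) between them. S100A6 (chr1:153534599-153536244) and S100A4 (chr1:153543613-153550136) were 7.4 kb apart on the minus strand. S100P lay at chr4:6693069-6697170 and S100Z at chr5:76850001-76921650. The principal transcripts were short, from 518 to 1279 nucleotides, and 9 of the 10 genes had 2 coding exons. S100A13 exons overlapped those of S100A1 on the other strand and of AL162258.1, and S100A6 exons overlapped BX470102.1 on the other strand. Whether the reads were counted by strand is not given in the sources used here, so the values of S100A13 and S100A6 may include reads of those genes.

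The start-proximal DNA is shown for 7 of the 8 members that were tested in Molm-14, because these include members that rose and members that fell. S100A10, which rose there, is not shown and is described below. Each line holds 30 bases, from 40 to 11 bases before a RefSeq start (GRCh38.p14), read 5′ to 3′ on the gene's strand, with any TATAAA in capitals. For S100A8 and S100A13, which have several starts in RefSeq, the start with a TATAAA at this distance is shown.
S100A8 (chr1:153391084-153391113, minus): agcctaaccgcTATAAAaaggagctgcctc
S100A9 (chr1:153357814-153357843, plus): caggagctgccTATAAAtgccgagcctgca
S100P (chr4:6693838-6693867, plus): atgaggctgcctTATAAAgcaccaagaggc
S100A4 (chr1:153545817-153545846, minus): tggctggggTATAAAtaggtcagacctctg
S100A13 (chr1:153627516-153627545, minus): tccccgctgctTATAAAcctcagccctgag
S100A6 (chr1:153536002-153536031, minus): caccgaccgctataaggccagtcggactgc
S100A11 (chr1:152037015-152037044, minus): gtaaggcttgggcaaggctgggccgggaag

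The TATAAA of S100A8, S100A9 and S100A13 began 29 bases before the start, that of S100P 28 and that of S100A4 31 bases before it. A TATAAA on the gene's strand that began 24 to 35 bases before a start was found for these 5 of the 10 members, and in 2.18% of the 35116 RefSeq windows of the same length. The 10 members had 14 windows. Here and for the patterns below, a member was counted if any of its windows held the pattern, whereas the shares over all are per window. S100A6, S100A11 and S100A10 had no TATAAA in the 250 bases before their starts, and those 250 bases were 70.0%, 63.6% and 71.2% G and C. The share was 62.8% for S100A4 and S100A13, 53.2% for the S100A8 start shown and 55.6% for S100A9 and S100P. The median over all windows was 58.0%. Both strands of the 250 bases were also searched for 3 letter patterns of myeloid and stress factors. GAGGAAG, a PU.1-type pattern, was present for S100A8, S100A9 and S100Z and in 11.2% of all windows. TTGCNNAA, a C/EBP-type pattern, was present for S100A11 and S100A12 and in 9.05% of all windows, and TGANTCA, an AP-1-type pattern, for S100A12 and in 6.57%. The upstream 250 bases of S100A9, which fell in Molm-14 while most members tested there rose, are printed with GAGGAAG (here as its reverse complement) and TATAAA in capitals.
S100A9 (chr1:153357604-153357853, plus): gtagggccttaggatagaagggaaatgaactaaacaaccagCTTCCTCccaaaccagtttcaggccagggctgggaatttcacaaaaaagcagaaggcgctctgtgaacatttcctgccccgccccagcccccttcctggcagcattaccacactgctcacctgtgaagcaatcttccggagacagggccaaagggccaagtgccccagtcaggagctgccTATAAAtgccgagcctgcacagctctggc

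Depth was even, with 17434810 to 19959917 reads per library. In 4 libraries more than 10% of the reads came from mitochondrial genes: replicate 2 of Molm-14 with RMC-4550 (15.0%), replicates 1 and 3 of MV4-11 with DMSO (12.7% and 14.6%) and replicate 1 of MV4-11 with RMC-4550 (10.5%). The other 14 lay between 5.07% and 7.02%. Of 7 myeloid markers, 5 were at 1 CPM or more in all 18 libraries (ANPEP and MPO were not), and the summed level was 1028 to 1603 CPM. In Molm-14 it was 1064 to 1088 CPM with DMSO and 1341 to 1603 CPM with RMC-4550, and in SKNO-1 1254 to 1290 and 1414 to 1565 CPM; its part in the S100 changes was not tested. Summed T cell markers stayed at 0.058 CPM or less and platelet markers at 0.093 CPM or less. The keratins KRT8 and KRT18 and the collagen COL1A1 were detected in every library. The summed epithelial list was higher with RMC-4550 in Molm-14 (17.28 to 19.26 CPM, then 25.58 to 38.37) and SKNO-1 (33.77 to 37.34, then 47.54 to 48.58) and overlapped in MV4-11 (25.57 to 38.12, then 29.11 to 39.19), and its part in the S100 changes was not tested. The markers MS4A1, EPCAM and DCN were at 0.19 CPM or less. In bulk RNA, fewer cells that make a transcript and less of it per cell cannot be told apart.

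**Figure D1:**
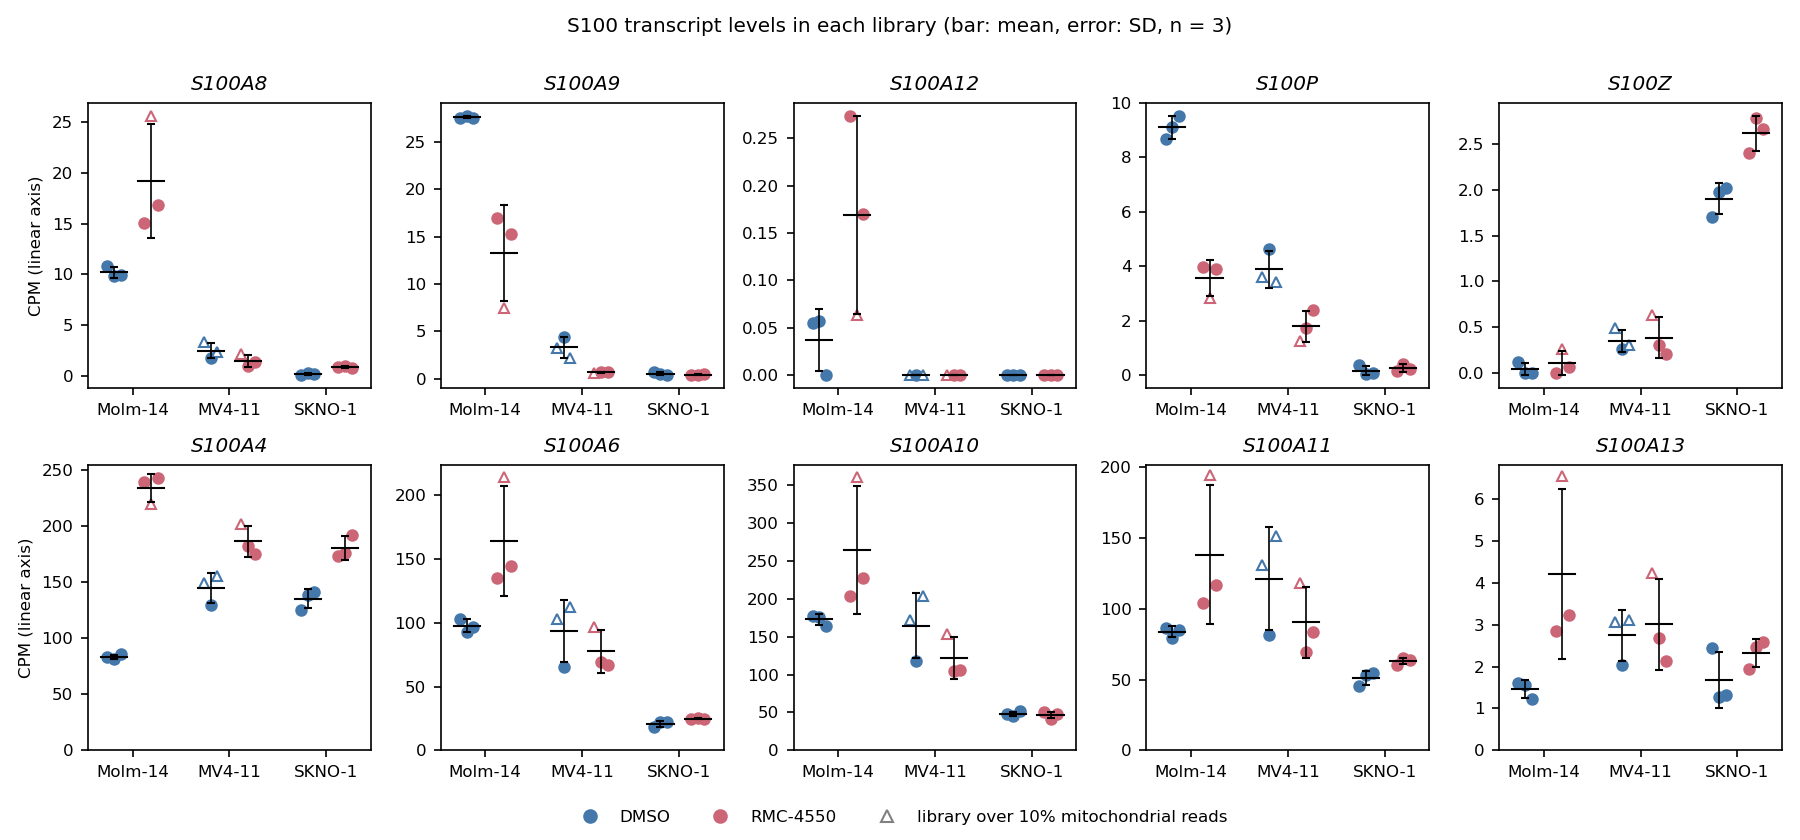
Level of each S100 transcript in CPM (linear axis, different for each panel) in the 18 libraries, by line, with DMSO in blue and RMC-4550 in red; bars are group means and error bars the SD (n = 3), and open triangles mark the 4 libraries with more than 10% mitochondrial reads. S100A4 is higher with RMC-4550 in all 3 lines, S100A9 is lower in Molm-14 and MV4-11, and S100A12 is at 0 in all 12 libraries of MV4-11 and SKNO-1.

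Without drug, the 3 lines shared a set of 4 abundant S100 transcripts and differed in the phagocyte alarmins. Per kilobase of transcript, S100A6, S100A10, S100A11 and S100A4 were the top 4 members in each line. In Molm-14 they were nearly level, at 147, 144, 141 and 139 CPM per kilobase. S100A4 led in MV4-11, with 241 CPM per kilobase, followed by S100A11 (204), S100A6 (141) and S100A10 (137). The same gene led in SKNO-1, with 225 CPM per kilobase, ahead of S100A11 (85.9), S100A10 (40.3) and S100A6 (31.6). S100A9 and then S100A8 came next in both FLT3-ITD lines, with 47.8 and 19.5 CPM per kilobase in Molm-14 and 5.75 and 4.75 in MV4-11. In SKNO-1 both stood under 1, at 0.94 and 0.29 CPM per kilobase. The ranges of neighbouring members overlapped among the top 4 in Molm-14. In MV4-11 each of the top 4 overlapped the next, as did each of S100A9, S100A8, S100A13 and S100P. In SKNO-1 overlap was seen between S100A13 and S100Z and between S100A8 and S100P, so that the order S100A4, S100A11, S100A10, S100A6 had no overlap in that line. Summed over the 10 members, the DMSO libraries held 479 to 500 CPM in Molm-14, 407 to 634 in MV4-11 and 243 to 273 in SKNO-1.

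S100A8 was highest in Molm-14, with 10.8, 9.80 and 9.92 CPM in the DMSO libraries, against 3.34, 1.79 and 2.33 in MV4-11 and 0.046, 0.28 and 0.14 in SKNO-1. S100A9 followed the same order, with 27.5, 27.7 and 27.5 CPM in Molm-14, 3.28, 4.45 and 2.21 in MV4-11 and 0.69, 0.50 and 0.42 in SKNO-1. The groups of the 3 lines did not overlap for either calprotectin subunit. S100P, a family member first described in placenta, was again highest in Molm-14 (8.67, 9.11 and 9.53 CPM), intermediate in MV4-11 (3.61, 4.65 and 3.41) and at 0.37 CPM or less in SKNO-1. S100Z had the opposite order, with 1.71, 1.97 and 2.02 CPM in SKNO-1, 0.48, 0.26 and 0.30 in MV4-11 and 2 reads in total in Molm-14. S100A12 had 2 reads in total in the Molm-14 DMSO libraries and 0 in all 12 libraries of the other lines, where 0 reads allow up to 3 reads, or 0.138 to 0.180 CPM, for counting error only.

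Against MV4-11, Molm-14 DMSO libraries were higher in 3 of the 8 members tested and lower in 2, where 27.9% of all 15252 genes tested were higher and 26.2% lower (54.1% in all). For the same 5 members the groups did not overlap, as for 61.1% of all genes (32.2% higher and 28.9% lower). The rises were S100A9 (log2 difference 3.10, SE 0.29, limma adjusted p 2.6e-07), S100A8 (2.07, SE 0.41, adjusted p 0.00061) and S100P (1.23, SE 0.48, adjusted p 0.042). S100A4 was lower by a log2 difference of -0.79 (SE 0.09, adjusted p 1.4e-06) and S100A13 by -0.88 (SE 0.33, adjusted p 0.037). The S100P and S100A13 calls were lost when any 1 of 5 of the 6 libraries was left out. Without the libraries over 10% mitochondrial reads, which left 1 MV4-11 vehicle library, their differences were 0.96 and -0.48. S100A6 and S100A10 differed by 0.10 and 0.11 with all libraries and by 0.57 and 0.55 without those libraries. With 1 MV4-11 vehicle library left, no p-value is given for that setting. The median difference was 0.10 over the 8 members and 0.05 over all genes tested.

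SKNO-1 had lower levels of 6 of the 9 members tested than either other line. Against Molm-14, 2 members were higher and 6 lower (32.5% and 32.7% of 15759 genes), and against MV4-11, 1 was higher and 6 lower (19.4% and 22.2% of 15512 genes, 41.6% in all). The groups were separate for the same 8 and 7 members, as for 83.4% of all genes against Molm-14 (41% higher and 42.4% lower) and 52.5% against MV4-11 (26.1% and 26.4%). The 6 were the same in both: S100A8 (log2 difference -6.08 against Molm-14 and -4.02 against MV4-11), S100A9 (-5.64 and -2.54), S100P (-5.96 and -4.72), S100A6 (-2.22 and -2.12), S100A10 (-1.84 and -1.73) and S100A11 (-0.72 and -1.20). The limma adjusted p-values of these 12 differences were at most 0.0143. S100Z was read 37, 43 and 43 times in SKNO-1, 2, 0 and 0 times in Molm-14 and 9, 5 and 5 times in MV4-11, and no fold is given. S100Z entered these tests through SKNO-1 alone, and S100A8, S100A9 and S100P through the other line alone, so that these 4 had to differ and their calls are a description. S100A4 was higher than in Molm-14 by 0.69 (SE 0.09, adjusted p 2.6e-06), and its difference from MV4-11 was -0.10 (SE 0.09, adjusted p 0.38). Both comparisons share the SKNO-1 libraries. The S100A11 difference from Molm-14 was lost without replicate 1 of SKNO-1 DMSO (-0.64, adjusted p 0.054). Transcripts of very low level, such as S100A8 in SKNO-1 with 1, 6 and 3 reads, leave the size of such a difference uncertain.

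With RMC-4550, the family split in Molm-14. S100A4, S100A6, S100A10, S100A11 and S100A13 rose, S100A9 and S100P fell, and S100A8 did not pass the test. That is 5 higher and 2 lower of the 8 members tested, where 21.5% of 13971 genes were higher and 25.2% lower, so that 46.7% of all genes changed in this line. The groups did not overlap for any of the 8 (60% of all genes tested), 6 of them higher with the drug and 2 lower (26.9% and 33.1% of all genes). The median change of the 8 members was 0.69 on the log2 scale, against -0.06 over all genes tested. The summed level of the 10 members went from 479 to 500 CPM with DMSO to 721 to 1031 CPM with RMC-4550.

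In MV4-11, 8 members were tested and S100A4 rose. S100A9 also passed as lower, but it had entered the test through its DMSO libraries alone, so its call is not counted as support (background 5.85% of 14739 genes higher and 8.03% lower, 13.9% in all). In SKNO-1, S100A4 rose, 1 of 6 members tested, and 0 fell by limma (0 at an unadjusted p under 0.05); 10.8% of 14670 genes were higher and 16.2% lower (27.1% in all), that is 1588 against 2381 genes, and 1963 against 1933 with median-ratio scaling. The groups were separate for 3 of 8 members in MV4-11, 1 higher and 2 lower (11.1% and 13.5% of all genes, 24.6% together). The 2 lower were S100P and S100A9, the latter as a description only. In SKNO-1 they were separate for 4 of 6, each higher (26.6% of all genes, and 62% in either direction). Median changes were -0.42 over the members in MV4-11 and 0.36 in SKNO-1, against -0.01 and -0.05 over all genes. The MV4-11 median lay between the changes of S100A10 (-0.43) and S100A11 (-0.41). Without the libraries over 10% mitochondrial reads, which left 1 vehicle library, these 2 changes were -0.16 and -0.09. PTPN11, the gene of the drug's target, had log2 changes of -1.0 (Molm-14), -0.30 (MV4-11) and -0.64 (SKNO-1; limma adjusted p 0.0013, 0.42 and 0.037).

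**Figure D2:**
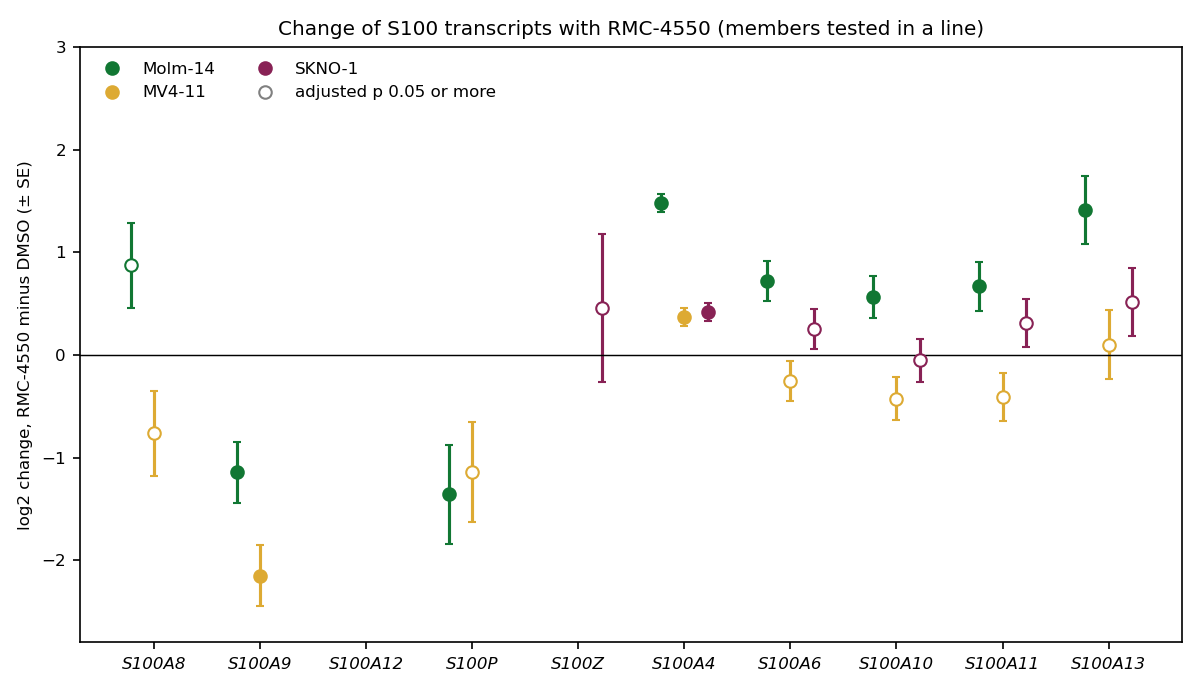
Log2 change of each member with RMC-4550 against DMSO (points, with SE as error bars) in the lines where it was tested; filled points had a limma adjusted p under 0.05. S100A4 is filled in all 3 lines and S100A9 in both FLT3-ITD lines. The filled MV4-11 point of S100A9 is a description, because S100A9 entered that test through its DMSO libraries alone. S100A6, S100A10 and S100A11 lie above 0 in Molm-14 and below 0 in MV4-11.

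S100A9, the larger subunit of calprotectin, fell in Molm-14, and its level was lower with the drug in MV4-11 too. In Molm-14 it went from 27.5, 27.7 and 27.5 CPM to 16.9, 7.49 and 15.3 CPM. Every treated library lay below every vehicle library, and replicate 2 was the lowest. The change was -1.14 on the log2 scale (SE 0.29, limma adjusted p 0.0048), and -0.78 (adjusted p 0.026) without replicate 2, the library with 15.0% mitochondrial reads. In MV4-11 the vehicle libraries held 3.28, 4.45 and 2.21 CPM and the treated ones 0.63, 0.76 and 0.71 CPM, again without overlap. The log2 change there was -2.15 (SE 0.29), given as a description, because S100A9 passed the filter on low values in MV4-11 through its DMSO libraries alone. In SKNO-1 it had 15, 11 and 9 reads with DMSO and 9, 8 and 11 with RMC-4550, too few to be tested.

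S100A8, its partner, did not follow. In Molm-14 the levels were 10.8, 9.80 and 9.92 CPM with DMSO and 15.1, 25.6 and 16.9 CPM with RMC-4550. The groups were separate and the treated one was the higher, but the change of 0.87 (SE 0.41) had a limma adjusted p of 0.094. On the log2(CPM + 1) scale (0.82, adjusted p 0.0029), in a fit of Molm-14 alone (adjusted p 0.016) and with voom weights (adjusted p 0.0021) it passed. Without replicate 2 of the treated group the change was 0.65 (adjusted p 0.28). In MV4-11 the levels were 3.34, 1.79 and 2.33 CPM and then 2.11, 0.96 and 1.37 CPM, groups that overlapped, and the change was -0.76 (SE 0.41, adjusted p 0.27). In SKNO-1 the reads went from 1, 6 and 3 to 19, 21 and 17. This is a mean of 0.15 CPM against 0.88 CPM, a ratio of 5.69, below the level at which a gene was tested. With no filter the change was 2.58 (SE 0.40, adjusted p 0.00021).

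The ratio of S100A8 to S100A9 reads within a library, a measure chosen after the values were seen, was higher with the drug in all 3 lines. In Molm-14 it was 0.394, 0.353 and 0.36 with DMSO and 0.89, 3.42 and 1.1 with RMC-4550. The MV4-11 libraries gave 1.02, 0.402 and 1.05 and then 3.33, 1.27 and 1.93. The vehicle and treated libraries did not overlap in either line. In SKNO-1, the summed reads were 10 of S100A8 to 35 of S100A9 with DMSO, a ratio of 0.286 (95% exact binomial interval 0.126 to 0.59), and 57 to 28 with RMC-4550, a ratio of 2.04 (1.27 to 3.32). These intervals cover counting error only. The exact two-sided permutation p was 0.1 in each line, which is the smallest that 3 against 3 allows, and 0.1 after adjustment over the 3 lines. The ratio also moved with the mitochondrial share: replicate 2 was the highest of Molm-14 with RMC-4550, and replicates 1 and 3 were the highest of MV4-11 with DMSO. The libraries under 10% alone gave 0.89 and 1.1 against 0.353 to 0.394 in Molm-14, and 1.27 and 1.93 against 0.402 in MV4-11, where 1 vehicle library remained.

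**Figure D3:**
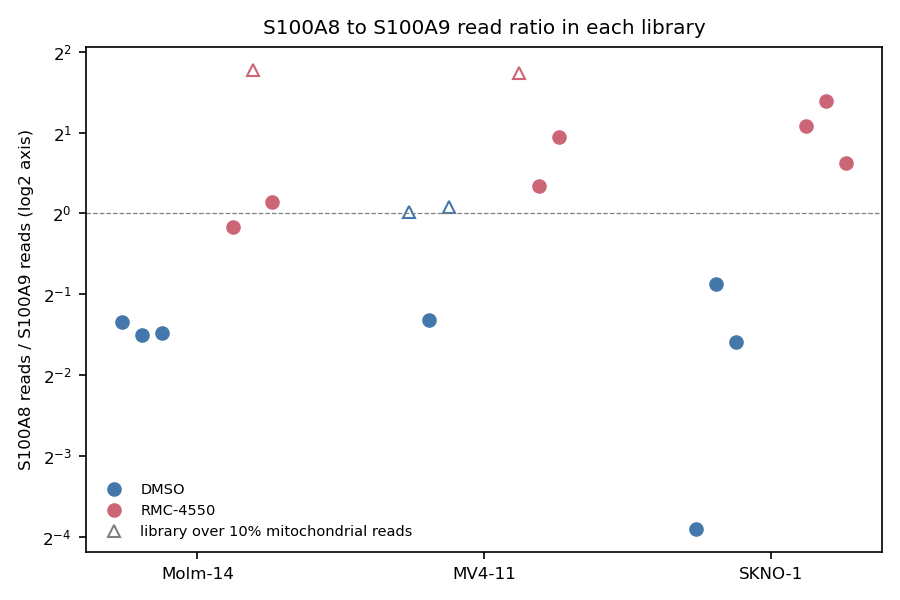
Ratio of S100A8 to S100A9 reads in each library (log2 axis), with DMSO in blue and RMC-4550 in red and open triangles for libraries over 10% mitochondrial reads; the dashed line marks equal reads. In Molm-14 the vehicle libraries lie between 0.353 and 0.394 and the treated ones between 0.89 and 3.42, and no line shows overlap.

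S100A12, the alarmin gene between these neighbours, was read 1, 1 and 0 times in Molm-14 with DMSO and 5, 1 and 3 times with RMC-4550, which is 0.27 CPM at most. These counts are at or near the floor of 3 reads per library, and no change is given. S100P fell in Molm-14, from 8.67, 9.11 and 9.53 CPM to 3.99, 2.82 and 3.90 CPM. The groups did not overlap, and the change was -1.36 (SE 0.48, limma adjusted p 0.031). The call was lost without any single DMSO library of Molm-14 (adjusted p 0.062 to 0.076) and without replicate 2 of the treated group (-1.20, adjusted p 0.092). In MV4-11 S100P levels of 3.61, 4.65 and 3.41 CPM stood against 1.27, 1.72 and 2.39 CPM, also without overlap, with a change of -1.14 (SE 0.48, adjusted p 0.14). That change passed on the log2(CPM + 1) scale (-0.82, adjusted p 0.0021), with voom weights (-1.14, adjusted p 0.01) and with the mitochondrial covariate (-1.35, adjusted p 0.026). S100Z was tested with the drug in SKNO-1 alone, where 1.71, 1.97 and 2.02 CPM stood against 2.41, 2.78 and 2.67 CPM. The SKNO-1 groups were separate, and the change of 0.46 (SE 0.72, adjusted p 0.69) did not pass in the common fit, in which the spread of this gene also came from lines with 0 to 12 reads. In a fit of SKNO-1 alone the adjusted p was 0.034.

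S100A4, a regulator of non-muscle myosin and cell motility also known as metastasin, was the member that rose in all 3 lines. In Molm-14 it went from 83.4, 82.0 and 85.7 CPM to 239, 220 and 243 CPM. The groups were far apart, the mean of the treated libraries being 2.8-fold that of the vehicle libraries, and the change was 1.48 (SE 0.09, limma adjusted p 4.8e-09). The MV4-11 libraries held 149, 130 and 156 CPM with DMSO and 202, 183 and 175 CPM with RMC-4550. This smaller change, 0.37 (SE 0.09, adjusted p 0.0087), did not pass in a fit of MV4-11 alone (adjusted p 0.16). Without the libraries over 10% mitochondrial reads, which left 1 vehicle library, it was 0.47. SKNO-1 had 125, 139 and 142 CPM with DMSO and 173, 176 and 193 CPM with the drug, a change of 0.42 (SE 0.09, adjusted p 0.0018). Vehicle and treated libraries did not overlap in any line. After treatment Molm-14, the line with the lowest S100A4 level under DMSO, held the highest, 220 to 243 CPM against 173 to 202 CPM in the other lines.

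S100A6, S100A10 and S100A11, which encode the annexin-binding members calcyclin, p11 and calgizzarin, rose in Molm-14 to an extent that depended on replicate 2. S100A6 went from 103, 93.2 and 96.8 CPM to 135, 214 and 144 CPM (log2 change 0.72, SE 0.20, limma adjusted p 0.0072). S100A10 had 178, 177 and 165 CPM and then 204, 361 and 227 CPM (0.56, SE 0.21, adjusted p 0.036). S100A11 had 86.5, 79.2 and 85.1 CPM and then 104, 194 and 117 CPM (0.67, SE 0.24, adjusted p 0.030). For each of these genes the treated and vehicle libraries were separate, and treated replicate 2 stood far above the others. Without that library alone the changes were 0.51 (adjusted p 0.041), 0.32 (adjusted p 0.20) and 0.40 (adjusted p 0.17). With all 4 libraries over 10% mitochondrial reads left out the same 3 changes had adjusted p-values of 4.1e-05, 0.0018 and 0.00084. The S100A10 and S100A11 calls were also lost without any single DMSO library of Molm-14, with adjusted p-values of 0.068 to 0.096 and 0.057 to 0.082.

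In MV4-11 these 3 genes did not pass. The S100A6 libraries with DMSO held 103, 65.7 and 112 CPM and those with RMC-4550 96.8, 69.4 and 66.7 CPM, a change of -0.25 (SE 0.20, limma adjusted p 0.46). The S100A10 change was -0.43 (SE 0.21, adjusted p 0.21) and that of S100A11 -0.41 (SE 0.24, adjusted p 0.30). Without replicate 2 of MV4-11 DMSO, the vehicle library under 10%, these were -0.65 (adjusted p 0.033) and -0.68 (adjusted p 0.043). In all 3 genes the MV4-11 libraries with a high mitochondrial share were the highest of their group. Without them the changes were 0.05 for S100A6, -0.16 for S100A10 and -0.09 for S100A11, with 1 vehicle library and 2 treated libraries left. In SKNO-1, where no library exceeded 6% mitochondrial reads, S100A6 went from 18.3, 22.7 and 22.1 CPM to 24.4, 25.5 and 24.8 CPM, with separate groups. Its change of 0.25 (SE 0.20, adjusted p 0.38) and that of S100A11, 0.31 (SE 0.24, adjusted p 0.37), did not pass in the common fit. Both passed in a fit of SKNO-1 alone (adjusted p 0.018 and 0.0012) and without the libraries over 10% mitochondrial reads (0.0074 and 0.0028) and with the mitochondrial covariate (0.022 and 0.0049). S100A10 was at 48.3, 45.7 and 51.4 CPM with DMSO and 50.5, 41.9 and 48.0 CPM with RMC-4550 in that line, overlapping groups (-0.05, SE 0.21, adjusted p 0.89).

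S100A13, which takes part in the release of leaderless growth factors, was a scarce transcript that rose in Molm-14. It went from 1.61, 1.56 and 1.23 CPM to 2.84, 6.53 and 3.22 CPM (log2 change 1.41, SE 0.33, limma adjusted p 0.0028), and the groups did not overlap. Leaving out replicate 2 gave 1.04 (adjusted p 0.016). Its changes in MV4-11 and SKNO-1 were 0.10 and 0.52 (adjusted p 0.89 and 0.28). S100A1, which shares exonic sequence with S100A13 on the other strand, also rose in Molm-14 (0.93, SE 0.28, adjusted p 0.014). Reads of these genes cannot be told apart if counting ignored strand.

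Several members moved with the mitochondrial share. In the Molm-14 treated group, the library with 15.0% mitochondrial reads had 1.53-fold the S100A6 level of its other replicates, 1.68-fold the S100A10, 1.76-fold the S100A11, 1.61-fold the S100A8 and 2.15-fold the S100A13 level. For S100A9 the figure was 0.467, for S100P 0.717 and for S100A4 0.911. In the MV4-11 vehicle group S100A6, S100A10 and S100A11 were 1.64-fold, 1.59-fold and 1.74-fold and S100A9 0.609-fold. In the MV4-11 treated group the figures for these 4 genes were 1.42, 1.45, 1.55 and 0.869. Over all genes tested the median of this ratio was 0.937, 0.96 and 0.985 in the 3 groups, and over genes whose longest transcript was no longer than 1202 nucleotides it was 1.23, 1.32 and 1.19. When the limma fit included each library's mitochondrial percentage as a covariate, the Molm-14 changes of S100A6, S100A10 and S100A11 were 0.47, 0.29 and 0.35 (adjusted p 5.1e-05, 0.0014 and 0.00072). In the same fit S100A9 and S100A13 had Molm-14 changes of -0.81 and 1.07 (adjusted p 0.0020 and 0.00094), and S100A4 one of 1.46 (adjusted p 7.1e-13).

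**Figure D4:**
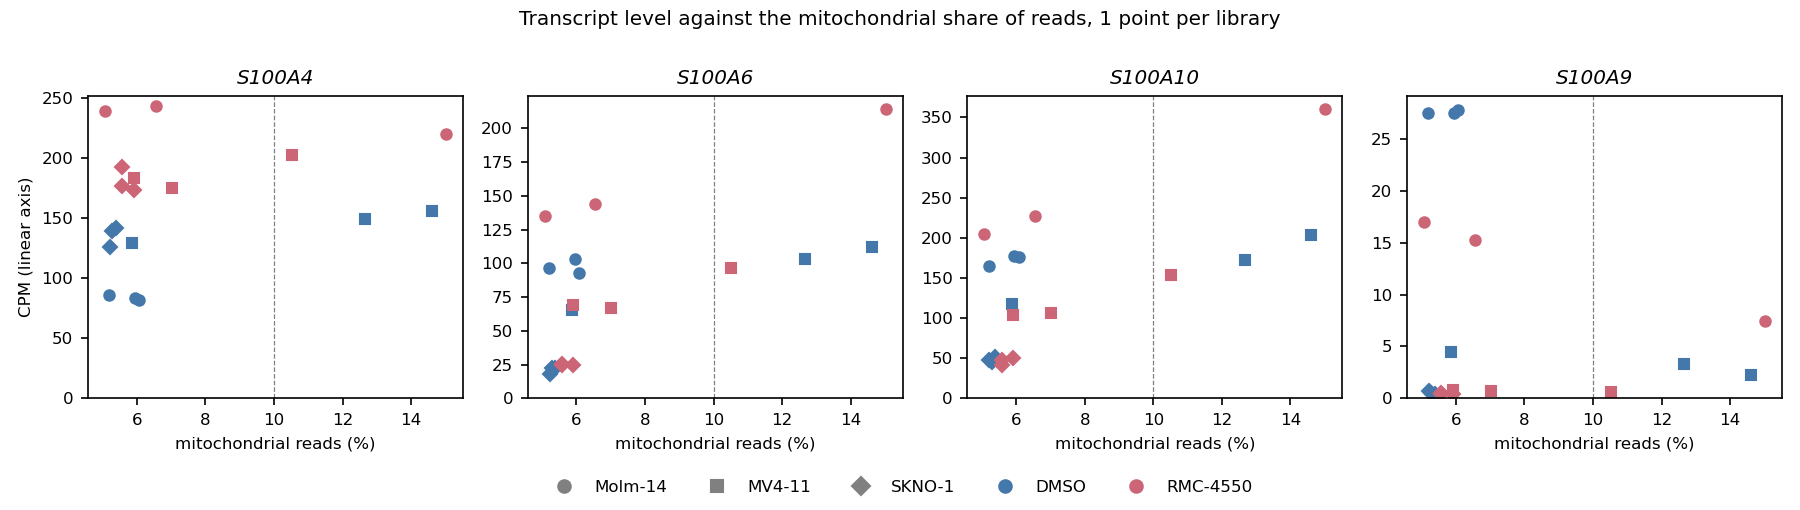
CPM (linear axis) of S100A4, S100A6, S100A10 and S100A9 against the percentage of reads in mitochondrial genes, with 1 point per library, marker shape for the line and colour for the treatment; the dashed line is at 10%. S100A6 and S100A10 reach 214 and 361 CPM in the Molm-14 treated library at 15.0%, where S100A9 is at 7.49 CPM, and S100A4 lies at 220 to 243 CPM in all 3 treated Molm-14 libraries.

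The response of Molm-14 exceeded that of MV4-11 for 4 of the 8 members tested in both lines and was lower for none; 10.3% of 13458 genes were higher in this test and 9.12% lower (19.5% in all). Among the 4 that passed, S100A4 had the largest difference in log2 change (1.11, SE 0.12, limma adjusted p 4.4e-05), which passed without each of the 12 libraries in turn. S100A11 (1.08, adjusted p 0.036), S100A10 (0.99, adjusted p 0.030) and S100A6 (0.97, adjusted p 0.025) lost the call without 7 or 8 of the 12 single libraries. Without the libraries over 10% mitochondrial reads, which left 1 MV4-11 vehicle library, these 3 differences were 0.49, 0.48 and 0.46. That of S100A4 was 1.06. S100A8 (1.64, SE 0.59, adjusted p 0.060) and S100A13 (1.31, SE 0.47, adjusted p 0.062) did not pass with all libraries. Each did without at least 1 single library (lowest adjusted p 0.025 and 0.023). The S100A8 difference also passed on the log2(CPM + 1) scale (1.31, adjusted p 0.0051), in a fit of this pair of lines (adjusted p 0.042) and with voom weights (adjusted p 0.016). The S100A9 difference was 1.01 (SE 0.42) with all libraries, where it did not pass, and 1.68 with the mitochondrial covariate. It is given as a description, because S100A9 passed the filter in MV4-11 through its DMSO libraries alone. No call on this difference is counted as support. The S100P difference was -0.22 (SE 0.69, adjusted p 0.83). The response of SKNO-1 differed from the mean response of both FLT3-ITD lines for S100A4 alone among 5 members tested, by -0.51 (SE 0.11, adjusted p 0.011), where 1.35% of 12792 genes were higher and 2.45% lower (3.8% in all). This call was lost without replicate 3 of SKNO-1 DMSO (-0.47, adjusted p 0.0504). The mean of the FLT3-ITD lines hides that the S100A4 changes of SKNO-1 (0.42) and MV4-11 (0.37) were close and that of Molm-14 was 1.48.

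As a description over the 18 libraries, which share lines and treatments, the level most like that of S100A6 was that of S100A10 (Pearson r 0.99, Spearman rho 0.92 of the log2 values), and their deviations from the group means also moved together (r 0.90). S100A6 and S100A11 had r 0.89 over the libraries and 0.97 within groups. S100A8 and S100A9 were alike over the libraries (r 0.84, rho 0.80) and opposed within groups (r -0.57). S100A9 and S100P had r 0.84 and, within groups, 0.41. The within-group values include the 4 libraries over 10% mitochondrial reads, where S100A6, S100A10 and S100A11 were high and S100A9 low for their group. The part of these libraries in the within-group r was not tested. The most opposed pair was S100A9 and S100Z (r -0.90).

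Few other S100 genes were expressed. Of 10 further family members listed, 9 were in the table and 2 reached the filter: S100A1 and S100A3, a gene best known from hair follicles. S100A3 was at 1.14 to 2.10 CPM in the MV4-11 vehicle libraries and 1.06 to 2.03 in those of SKNO-1, and its changes with the drug were -0.01 and 0.29 (limma adjusted p 0.99 and 0.65). Molm-14 had 0.12 to 0.33 CPM of it with DMSO and 0.51 to 1.41 CPM with the drug and was not tested.

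Of the receptors of S100 proteins, 2 of 6 tested rose in Molm-14 and 1 fell (median change 0.49), and 2 of 7 rose in MV4-11 (0.23) and in SKNO-1 (0.05). Over all genes 21.5% rose and 25.2% fell in Molm-14, 5.85% rose in MV4-11 and 10.8% in SKNO-1. CD36 and LY96 were the 2 that rose in each line. CD36, a scavenger receptor that also binds S100A8 and S100A9 complexes, rose by 1.37 (Molm-14), 1.07 (MV4-11) and 2.20 (SKNO-1; limma adjusted p 2.4e-06, 0.00013 and 3.2e-08). LY96, the TLR4 co-receptor MD-2, rose by 0.98, 1.12 and 0.90 at a mean of 2.12 to 6.16 CPM per group; it is named after its values were seen. AGER, which encodes RAGE, had changes of 0.73, -0.67 and 0.05 and passed in no line (adjusted p 0.059, 0.17 and 0.93). Its unadjusted p was under 0.05 in Molm-14 and MV4-11. By limma its response in Molm-14 exceeded that in MV4-11, the 1 call among 6 receptors tested for this difference (10.3% of all genes higher and 9.12% lower). ALCAM, an adhesion molecule of the same list, had a Molm-14 change of -0.60 (adjusted p 0.034).

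Annexins, the binding partners of several S100 dimers, rose for 4 of 8 tested genes in Molm-14, with 1 lower, for 2 of 8 in MV4-11, and for 2 of 8, with 1 lower, in SKNO-1; the list also holds the annexin-linked scaffold AHNAK. Of all genes 46.7%, 13.9% and 27.1% passed in these lines in either direction. ANXA4 rose by 0.94 in Molm-14 and 0.55 in MV4-11 (limma adjusted p 6.3e-08 and 6.4e-05). ANXA1, a partner of S100A11, rose by 0.52 and 0.55 in these lines (adjusted p 0.0011 and 0.0026). ANXA5 rose by 0.60 in Molm-14 and 0.40 in SKNO-1 (adjusted p 1.4e-05 and 0.0010), and AHNAK by 0.75 in the latter (adjusted p 0.034). ANXA2, which forms a heterotetramer with S100A10, is named for that role after its values were seen: it rose by 0.37 in Molm-14 (adjusted p 0.0020), and its other changes were 0.03 (MV4-11) and -0.14 (SKNO-1), with adjusted p 0.87 and 0.24. ANXA7 was the gene that fell in both lines. The list medians were 0.35, 0.45 and 0.19 for Molm-14, MV4-11 and SKNO-1.

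Calprotectin delivers arachidonic acid to the phagocyte NADPH oxidase, whose genes were counted as a further list. In Molm-14 6 of 7 tested rose and none fell, in MV4-11 2 of 7 and in SKNO-1 1 of 7 (21.5%, 5.85% and 10.8% of all genes), with medians of 0.53, 0.03 and 0.19. This list, like the others, was chosen with earlier results of these data known, so its count is a description. NCF1, p47phox, rose by 1.99 in Molm-14 and 0.53 in MV4-11 (limma adjusted p 5.6e-08 and 0.025), with the reservation that it has near-identical pseudogene copies. NCF4 (1.04) and RAC1 (0.53) rose in Molm-14 (adjusted p 0.00057 and 0.0011). CYBB, the catalytic subunit, was at a mean of 0.14 to 0.41 CPM in the 6 groups and was not tested.

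Genes of monocyte and granulocyte maturation were mostly silent: 4 of 12 were tested in the FLT3-ITD lines and 3 of 12 in SKNO-1. In Molm-14 1 rose and 1 fell, in MV4-11 1 rose and in SKNO-1 2 rose. Of all genes 21.5% rose and 25.2% fell in Molm-14, 5.85% rose in MV4-11 and 10.8% in SKNO-1. CSF3R, the G-CSF receptor, rose by 0.97 in Molm-14 and 0.51 in SKNO-1 (limma adjusted p 0.00034 and 0.041). ITGAM, the integrin chain CD11b, rose by 0.46 in MV4-11 and 0.78 in SKNO-1 (adjusted p 0.00045 and 9.9e-07) while its Molm-14 change was -0.06 (adjusted p 0.53). MNDA, a nuclear antigen of myeloid cells, was at a low level and is named after its values were seen. In Molm-14 its mean was 2.46 CPM with DMSO and 0.717 CPM with RMC-4550. The treated libraries could not have passed the 1 CPM filter on their own, so the log2 change of -1.94 is a description. LYZ, the lysozyme gene, also named after its values were seen, passed in no line. Its ratios of mean CPM with RMC-4550 to DMSO were 0.877 (Molm-14), 1.36 (MV4-11) and 1.11 (SKNO-1). The list medians were -0.21, 0.26 and 0.51. CD14 and CD68 stayed under 1 CPM on average in every group.

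Of 10 transcription factors known to act on S100A8 and S100A9, 2 of 9 tested passed in Molm-14, 0 of 10 in MV4-11 and 1 of 10 in SKNO-1, where 46.7%, 13.9% and 27.1% of all genes did. SPI1, which encodes PU.1, rose by 0.48 and GFI1, a repressor, fell by 0.34 in Molm-14 (limma adjusted p 0.045 and 0.0013). KLF4 rose in SKNO-1, by 0.57 with an adjusted p of 0.016. For MV4-11 0 of 10 passed by limma, and 2 (CEBPA higher and CEBPD lower) had an unadjusted p under 0.05. The list medians were 0.07, 0.07 and 0.10. Among the C/EBP genes, CEBPD had the largest changes there and in SKNO-1, -0.60 and -0.49, without passing (adjusted p 0.051 and 0.072). SKNO-1, the line with least S100A8 and S100A9, had higher DMSO levels than Molm-14 of CEBPB, CEBPE, GFI1, HIF1A, KLF4 and SPI1 and a lower level of CEBPD. That is 6 higher and 1 lower of 10 genes, where 32.5% of all genes tested were higher and 32.7% lower (65.2% in all). CEBPE, with a mean of 0.45 CPM in Molm-14 DMSO and 10.8 CPM in SKNO-1 DMSO, entered this test through SKNO-1 alone. It therefore had to differ, and its call is a description. Molm-14 was also lower than MV4-11 in CEBPB, GFI1, KLF4 and SPI1, and in CEBPE as a description, and higher in STAT3 (26.2% and 27.9% of all genes). Against MV4-11, SKNO-1 was higher in CEBPB, CEBPE, GFI1 and HIF1A and lower in CEBPD (19.4% and 22.2% of all genes). SPI1 and KLF4 did not pass in that comparison.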

How the data were processed

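The authors deposited 1 table of log2 values for 40184 Ensembl genes in 18 libraries. FastQC, STAR, limma and GRCh38 are named in the submitters' processing notes; the counter, annotation and strand setting are not given in the sources used here. From the values, each was the log2 CPM of (reads + 0.5) over a scaled library (factors 0.890 to 1.11), and whole reads were recovered for 100% of low values (within 0.05 reads, tested below 20 reads). CPM were computed from those reads. Tests on the deposited log2 values used limma 3.58.1 and R 4.3.3 (lmFit, eBayes with a trend, two-sided, 18 libraries, 1 coefficient per group). Genes needed at least 1 CPM in at least 3 libraries, and again in the line tested (in either line for line comparisons). Benjamini-Hochberg adjustment ran over all genes tested, with calls under 0.05. The fit was tested on simulated data. Lengths and exons came from GENCODE 29, promoter windows from RefSeq, all 10 members being matched. The members and gene lists were chosen with earlier results of these data known. Named genes were all members, other S100 genes tested, PTPN11, and up to 4 called genes per list with the largest changes and a mean of at least 5 CPM. Alternatives were log2(CPM + 1), no filter, median-ratio scaling, separate fits, a replicate block, voom weights, the mitochondrial share as a covariate, and leaving out the libraries over 10% mitochondrial reads or each library. Figures used matplotlib 3.10.9 in Python 3.11.15. Some items are not reported here.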

Additional observations from a re-analysis of the deposited data

Results flagged for a closer look

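The change with RMC-4550 differed between lines for 4 members by limma's test of the difference between the responses. Molm-14 exceeded MV4-11 in S100A4 by 1.11 on the log2 scale (2.8-fold in Molm-14 against 1.29-fold in MV4-11), in S100A11 by 1.08, in S100A10 by 0.99 and in S100A6 by 0.97. SKNO-1 differed from the mean of Molm-14 and MV4-11 in S100A4 by -0.51. The S100A6, S100A10 and S100A11 differences fell to 0.46, 0.48 and 0.49 without the libraries over 10% mitochondrial reads. That setting left 1 MV4-11 vehicle library, and the cause was not tested.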

How the results depend on the processing

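With 3 cultures per group, calls near the threshold depended on single libraries. Without 1 library at a time, the members called numbered 4 to 7 in Molm-14 (7 with all), 1 to 3 in MV4-11 (2), 3 to 6 for Molm-14 against MV4-11 under DMSO (5), 7 to 8 for SKNO-1 against Molm-14 (8), 6 to 8 for SKNO-1 against MV4-11 (7), 1 to 6 for the response of Molm-14 against MV4-11 (4) and 0 to 1 for that of SKNO-1 against the mean of the others (1). S100A9 could not be tested in MV4-11 when a DMSO library was left out or when the libraries over 10% mitochondrial reads were, because too few libraries reached 1 CPM. Where it was tested there, its call is part of the MV4-11 counts and is a description only. The same holds for the Molm-14 against MV4-11 response counts wherever the S100A9 difference passed. A separate fit per line gave 1 member in MV4-11, 4 in SKNO-1 (1 in the common fit) and 2 for Molm-14 against MV4-11 responses. That fit was not run for SKNO-1 against the mean response. With no filter the counts were 2 in SKNO-1, 2 for Molm-14 against MV4-11 responses and 2 for SKNO-1 against the mean. The mitochondrial share as a covariate gave 3 in SKNO-1, and leaving out the libraries over 10% also gave 3 there. For MV4-11 that setting left 1 vehicle library, and no count is given. Directions turned for changes that had not passed: S100A6 in MV4-11 (0.0065 with the mitochondrial covariate, 0.0509 without the libraries over 10%), S100A10 in SKNO-1 (0.0116 with median-ratio scaling), S100A11 for Molm-14 against MV4-11 under DMSO (0.0495 and 0.0438), S100A4 for SKNO-1 against MV4-11 under DMSO (0.061 without those libraries), S100P for Molm-14 against MV4-11 responses (0.19 with the covariate) and S100A6 for SKNO-1 against the mean response (-0.0167 and -0.0309). Single libraries also turned S100A13 in MV4-11 (-0.17 to 0.32), S100A10 in SKNO-1 (-0.11 to 0.0259), S100A6 and S100A10 for Molm-14 against MV4-11 under DMSO (-0.14 to 0.25 and -0.12 to 0.28), S100A13 for SKNO-1 against Molm-14 under DMSO (-0.16 to 0.30), the S100P difference of Molm-14 and MV4-11 responses (-0.44 to 0.0098) and the S100A6, S100A10 and S100A13 differences of SKNO-1 from the mean response (-0.0785 to 0.14, -0.21 to 0.0031 and -0.40 to 0.0596). The cause was not tested. Same-numbered libraries did not pair: of 9 pairs within lines, 3 deviated together with r over 0.1 (range -0.40 to 0.59), and 6 of 18 libraries correlated best with their own number. With the replicate block, the members called numbered 6, 2 and 1 for Molm-14, MV4-11 and SKNO-1; S100A10 in Molm-14 (adjusted p 0.053), S100P for Molm-14 against MV4-11 under DMSO (0.062) and the S100A11 difference of responses (0.059) no longer passed. Depth limits S100A12, and S100A8, S100A9 and S100P in SKNO-1, which had 21 reads or fewer per library.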
